A study of Mus musculus with 2 samples.

Results

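Genes that encode 10 receptors for nutrients, bile acids and incretin hormones were followed in RNA from the gastric corpus, the acid-secreting body of the stomach. They were Ffar1, Ffar2, Ffar3, Ffar4, Gpr119, Casr, Gprc6a, Gpbar1, Gipr and Glp1r. The genes were chosen by name for the ligands of their receptors, with earlier results of these data known. All 10 were among the 37681 gene identifiers of both count files. The mice behind both libraries were C57BL/6 with an Hdc-CFP transgene, in which a cyan fluorescent protein reports the activity of Hdc, the histidine decarboxylase gene that makes histamine. The sorted library held Hdc-CFP+ cells of corpus epithelium and the depleted library held corpus epithelial cells from which the Hdc-CFP+ cells had been removed. Each group was 1 library, the number of mice that gave it is unstated in the labels, and both groups carried the transgene.

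These receptors are G protein-coupled receptors through which endocrine cells of the gut read the contents of the lumen and the blood. Fatty acid, amino acid and calcium receptors classically act on hormone release, while the incretins GIP and GLP1 are hormones of the intestine that increase insulin release from the pancreas after a meal. Receptors that couple to Gs raise cyclic AMP, those that couple to Gq raise calcium in the cell, and those that couple to Gi lower cyclic AMP. The study asked about the origin of histamine-making and serotonin-making cells of the corpus.

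Gene counts summed to 10736538 for the sorted library and to 50928524, 4.74 times as many, for the depleted one. Levels are given as CPM normalised by trimmed-mean (TMM) factors, which put both libraries on a common scale. Brackets give exact 95% intervals, which cover counting error only. No replicate check and no p-value can be had from 1 library a group, so each difference is one between these 2 libraries. In folds a count of 0 was held to a floor of 3 counts, which is 0.246 CPM sorted and 0.0668 CPM depleted. Hdc, at 8750 CPM sorted and 21.2 CPM depleted, differed in the direction of the labels. Of the epithelial label, the surface mucous genes Gkn1 and Muc5ac were at 68248 and 19921 CPM in the depleted library, while Tff1, another such gene, was listed at 0 in both. Macrophage genes were present there too, with Csf1r at 545 CPM. As bulk libraries they cannot tell fewer cells of a type from less RNA per cell.

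Of the 10 receptor genes 6 were measured, which means at least 10 counts in 1 library, and 4 were not. A measured gene was called higher or lower in the sorted library when it differed 4-fold or more with an interval that lay wholly past 2-fold. By that rule Ffar2, Gipr, Casr and Gprc6a were higher, Glp1r was lower and Ffar4 was neither. Over all 16682 measured genes 13.6% were called higher and 11.3% lower. The rule was not even between the directions, because a count of 0 allows a higher level in the shallower sorted library. Gprc6a, with 16 counts sorted and 0 depleted, was called higher, while Gng13, with 0 and 35, was called neither. The shares called higher and lower are thus not like for like. Gprc6a was measured through the sorted library alone, so it had to differ, and the 4 calls are a description of these genes. The median log2 fold of the 6 measured genes was 5.07, or 4.09 with the 0 of Gprc6a held to 3 counts, beside -0.05 over all measured genes. Gprc6a lies in the middle of these folds and so helps to set both medians. Without it the middle log2 fold is that of Casr, 3.88.

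**Figure D1:**
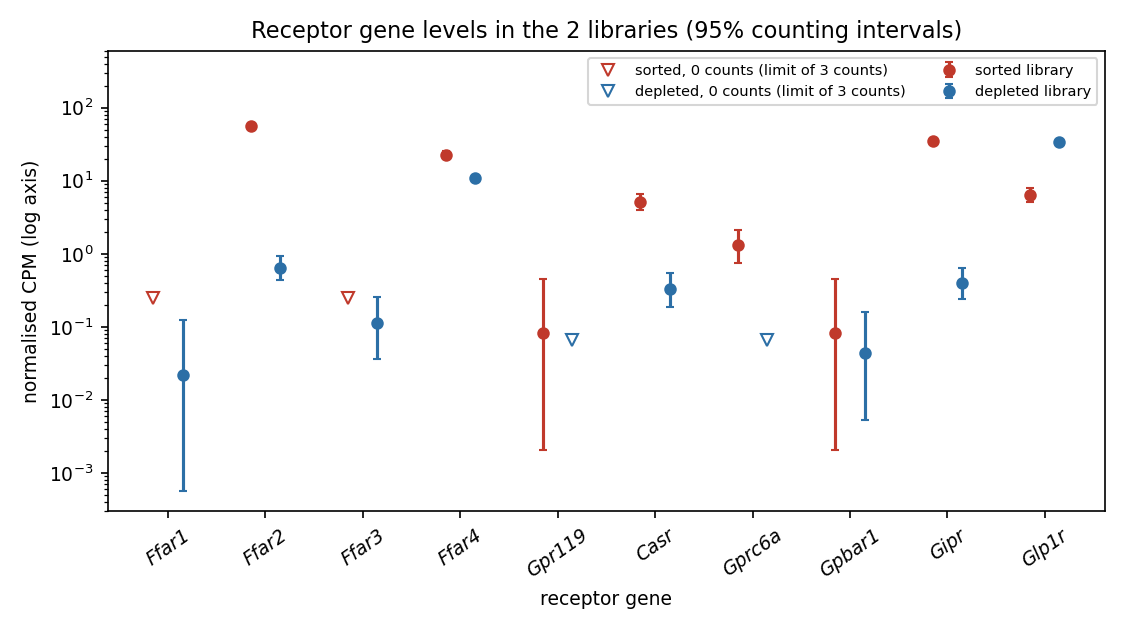
Normalised CPM (log axis) of the 10 receptor genes in the sorted (red) and depleted (blue) library, as points with exact 95% Poisson intervals; open triangles mark the limit that a count of 0 allows. Ffar2 stands at 56.3 against 0.646 CPM and Gipr at 34.98 against 0.401 CPM, Glp1r is the gene with the opposite order, and Ffar1, Ffar3, Gpr119 and Gpbar1 rest on 5 counts or fewer.

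The genes of the short-chain fatty acid receptors, Ffar2 and Ffar3, were at unlike levels in the sorted library. They lie next to each other on the same strand, with Ffar1 as the next gene. Ffar2 (ENSMUSG00000051314) encodes a Gq- and Gi-coupled receptor of acetate and propionate. Its counts were 686 sorted and 29 depleted, or 56.3 CPM [52.2 to 60.7] and 0.646 CPM [0.432 to 0.927]. The sorted library was 87.2-fold higher [60.2 to 131], and 2.76% of all measured genes had a larger fold. Ffar3, whose receptor couples to Gi and responds to propionate and butyrate, had 0 counts sorted and 5 depleted, too few to detect a difference at this depth. Krtdap, the neighbour of Ffar2 on the other side, was at 0 in both libraries. The high level of Ffar2 was not seen in Ffar3 either: the interval of Ffar3 ended at 0.303 CPM in the library where Ffar2 stood at 56.3 CPM. To show what lies before these start sites, the 250 bases before the first listed Ffar2 start (chr7:30823776-30824025, minus strand) and before the Ffar3 start (chr7:30856179-30856428, minus strand) are given 5′ to 3′ from the RefSeq table of GRCm38.p6. Capitals mark CAGATG, the E-box form bound by NeuroD1, on either strand. These 250 bases hold none before Ffar2 and 1 before Ffar3, 180 bases from the start.
Ffar2: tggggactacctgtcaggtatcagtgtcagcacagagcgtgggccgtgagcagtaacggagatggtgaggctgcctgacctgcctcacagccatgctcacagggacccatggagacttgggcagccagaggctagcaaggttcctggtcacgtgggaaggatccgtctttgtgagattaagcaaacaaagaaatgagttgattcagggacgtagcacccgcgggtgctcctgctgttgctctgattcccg
Ffar3: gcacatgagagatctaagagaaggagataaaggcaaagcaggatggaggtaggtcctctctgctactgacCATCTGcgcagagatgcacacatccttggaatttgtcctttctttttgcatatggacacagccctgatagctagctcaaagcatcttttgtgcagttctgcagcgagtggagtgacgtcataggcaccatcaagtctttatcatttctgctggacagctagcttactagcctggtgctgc

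The long-chain fatty acid receptor genes were Ffar4 and Ffar1. Ffar4, also known as Gpr120, was counted 276 times in the sorted library and 492 times in the depleted one. That is 22.7 CPM [20.1 to 25.5] against 10.96 CPM [10.01 to 11.97], and the sorted library was 2.07-fold higher [1.78 to 2.40]. Ffar4 was thus present in both libraries, and its fold was below the 4-fold rule. With the rule of at least 2-fold and an interval clear of 1 it would be called higher, beside 21.9% of all measured genes. The fold was under 2 with DESeq2 size factors (1.94-fold) and with TMM factors from all genes (1.92-fold). Its neighbour on the opposite strand was Rbp4, which encodes the retinol-binding protein of plasma and is also among the genes listed for somatostatin cells. Rbp4 was 21.3-fold higher in the sorted library [17.3 to 26.4] at 617 counts against 107. The strand setting of the counting was not given, and whether Rbp4 reads contribute to the Ffar4 counts was not tested. The other neighbour of Ffar4, Cep55, a gene of cell division, was 30.9-fold lower [16.7 to 64.6]. Ffar1, also known as Gpr40 and best known from pancreatic beta cells, had no count sorted and 1 depleted. Gpr119, the receptor gene for oleoylethanolamide and other lipid amides, had 1 and 0 counts. Both were at or under the floor of 3 counts in both libraries, and no fold is given. Cd22, a B cell receptor gene next to Ffar1, had 13 counts against 532, a level lower by 11.1-fold on the sorted side [6.43 to 20.98], and the neighbours of Gpr119, Slc25a14 and Rbmx2, were called neither.

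The genes of the calcium and amino acid receptors, members of the class C family of receptors with large extracellular domains, were both higher in the sorted library at low levels. Casr (ENSMUSG00000051980) encodes the calcium-sensing receptor, which aromatic amino acids also activate. Its counts were 63 sorted and 15 depleted, or 5.17 CPM [3.98 to 6.62] against 0.334 CPM [0.187 to 0.551]. The sorted library was 15.5-fold higher [8.72 to 29.3]. Gprc6a (ENSMUSG00000019905), whose receptor responds to basic amino acids, had 16 counts sorted (1.31 CPM [0.751 to 2.13]) and 0 depleted. With that 0 held to 3 counts, its level was 19.7-fold higher in the sorted library, with an exact interval from 14.2 up. The fold of Casr was 5.63 times smaller than that of Ffar2 [2.65 to 11.5], so these receptor genes did not differ between the libraries by a common factor.

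The neighbours of the class C genes had levels of their own. Rfx6, a transcription factor gene of the endocrine lineage, lies next to Gprc6a on the opposite strand. It was 107-fold higher in the sorted library [79.3 to 148], with 1278 counts against 44. The annotation used here gives the pair no shared exon bases, and the strand setting of the counting was not given. Whether reads from Rfx6 contribute to the 16 counts of Gprc6a was not tested. Cd86, a gene of antigen-presenting cells next to Casr, went the other way with 2 counts against 1213. The neighbours on the other side, Fam162b of Gprc6a and Stfa3 of Casr, had 2 counts against 1 and 0 in both. The 250 bases before the Gprc6a start (chr10:51631459-51631708, minus strand, GRCm38.p6, RefSeq) are shown because they hold CAGATG 2 times, in capitals, on opposite strands 206 and 32 bases before the start.
Gprc6a: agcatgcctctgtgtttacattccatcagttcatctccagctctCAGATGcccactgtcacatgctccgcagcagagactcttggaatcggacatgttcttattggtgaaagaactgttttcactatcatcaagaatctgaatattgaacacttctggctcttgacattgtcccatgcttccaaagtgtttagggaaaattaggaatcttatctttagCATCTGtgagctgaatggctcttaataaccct

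Of all 32851 windows of this kind, 14.4% hold CAGATG on either strand. Windows of 9 of the receptor genes were in the RefSeq table used here, and that of Gipr was not analysed here. The windows before Ffar1, Ffar3 and Gprc6a held CAGATG, and those before Ffar2 (4 start sites), Ffar4, Casr, Gpbar1, Gpr119 and Glp1r did not. GTTGCC, the core recognised by RFX factors, occurs in 10.4% of all windows and was found 2 times before Ffar4 and 1 time before Gpbar1. TATAAA, the TATA box, occurs in 12.4% of all windows and was found before none of the 9 genes. No motif was shared by the windows of the genes called higher. No match overlapped another.

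Gpbar1, the gene of the bile acid receptor TGR5, had 1 count sorted and 2 depleted, so no fold is given. Its neighbours Arpc2, a gene of the actin cytoskeleton, and Aamp had 1727 and 2255 counts in the sorted library and were called neither. Nr1h4, which encodes the nuclear bile acid receptor FXR, had 1 count against 152 and was 41.2 times lower in the sorted library by that ratio [7.29 to 1639].

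The incretin receptor genes went in opposite directions. Gipr (ENSMUSG00000030406), the gene of the Gs-coupled receptor for GIP, was counted 426 times sorted and 18 times depleted. That is 34.98 CPM [31.7 to 38.5] against 0.401 CPM [0.238 to 0.634], and the sorted library was 87.3-fold higher [54.6 to 149]. Both neighbours of Gipr were at nearly the same level in the libraries: Snrpd2, a splicing gene, at 17.4 and 17.9 CPM, and Eml2, a microtubule-associated protein gene, at 50.3 and 50.1 CPM. Glp1r (ENSMUSG00000024027), the gene of the Gs-coupled receptor for GLP1, was counted 78 times sorted and 1537 times depleted. It stood at 6.41 CPM [5.06 to 7.99] against 34.2 CPM [32.5 to 36.0] so that its level was lower by 5.34-fold on the sorted side [4.26 to 6.80]. Of its neighbours, the axonemal dynein gene Dnah8 was also called lower, by 4.24-fold [2.09 to 10.03] on 8 counts against 125, and Umodl1 was at 0 in both libraries. The ratio of Gipr to Glp1r counts, which needs no scaling between the libraries, was 5.46 sorted and 0.0117 depleted, and so differed 466-fold [272 to 830]. The 250 bases before the Glp1r start (chr17:30901617-30901866, plus strand, GRCm38.p6, RefSeq) are shown as those of the gene with the reverse direction. They held none of the 3 motifs, and 73.2% of them were G or C, beside 42% before Gprc6a, 56.8% before the first Ffar2 start and a median of 52.4% over all windows.
Glp1r: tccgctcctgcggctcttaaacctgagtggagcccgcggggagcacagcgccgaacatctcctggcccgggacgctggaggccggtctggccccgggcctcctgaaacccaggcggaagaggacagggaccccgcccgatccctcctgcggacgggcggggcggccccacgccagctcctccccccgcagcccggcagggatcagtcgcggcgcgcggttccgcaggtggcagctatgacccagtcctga

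Ffar2 and Gipr kept the same proportion to each other. There were 1.61 Ffar2 counts for each Gipr count in either library, and the ratio of these ratios was 0.9995 [0.516 to 1.89]. Between the 5 measured receptor genes with counts in both libraries 10 pairs were compared in this way. In 9 of the 10 pairs the interval excluded 1, the exception being Ffar2 with Gipr. The 10 pairs share the same 5 genes and so are not independent. How often the interval excludes 1 among pairs of other genes was not computed, so the count is a description only. The interval of that pair still allows a difference in either direction of nearly 2-fold.

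**Figure D2:**
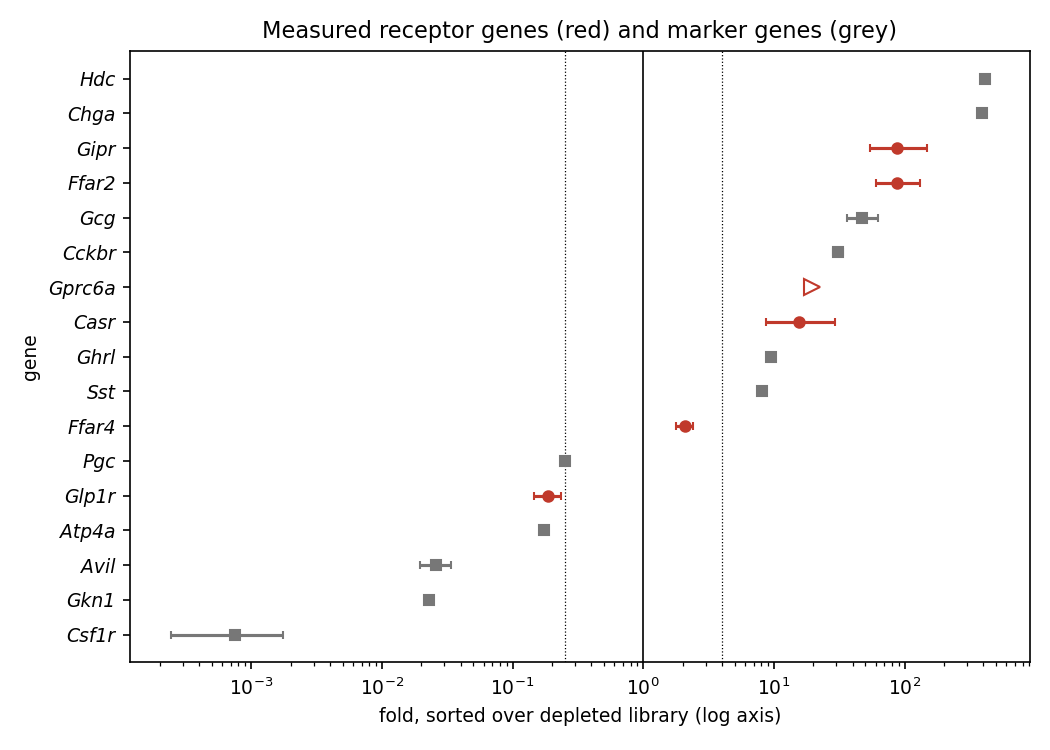
Fold, sorted over depleted library (log axis), of the 6 measured receptor genes (red) and of marker genes (grey), with exact 95% intervals. The open triangle of Gprc6a is its fold with 0 held to 3 counts, and dotted lines mark 4-fold. Ffar2 and Gipr, at 87-fold, lie between Gcg and Chga, and Glp1r lies beside Atp4a.

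The composition of the receptor gene set differed between the libraries. The 10 genes summed to 1547 counts sorted and 2099 depleted, or 127 and 46.7 CPM. In the sorted library Ffar2 made up 44.3%, Gipr 27.5% and Ffar4 17.8% of these counts, while Glp1r held 5.04%. In the depleted library Glp1r held 73.2% and Ffar4 23.4%, and the other 8 genes together had 70 counts. Divided by exon length, the order of the depleted library turned, with Ffar4 at 54.9% and Glp1r at 41.4% of the summed level per kilobase. In the sorted library the shares per kilobase were 41.05% for Ffar2, 32.9% for Ffar4, 20.4% for Gipr and 2.24% for Glp1r.

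Between genes, levels compare only per length, here as normalised CPM per kilobase of all exons annotated in GENCODE M21, since the annotation behind the counts is not known. In the sorted library Ffar2 led with 20.2 [18.7 to 21.8], followed by Ffar4 with 16.2 [14.3 to 18.2] and Gipr with 10.05 [9.12 to 11.05]. On this scale 86.8% of measured genes were below Ffar2, 82.4% below Ffar4 and 71.2% below Gipr. Glp1r and Casr followed at 1.10 each and did not differ beyond counting error, then came Gprc6a at 0.460 [0.263 to 0.746]. In the depleted library Ffar4 led with 7.82 [7.15 to 8.54] CPM per kilobase and Glp1r followed with 5.89 [5.60 to 6.19]. Ffar2 at 0.232 [0.155 to 0.332] and Gipr at 0.115 [0.0682 to 0.182] came next with overlapping intervals, and Casr and Ffar3 stood at 0.0708 and 0.0602. Only 14.2% of measured genes had a lower level per kilobase than Ffar2 in that library.

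**Figure D3:**
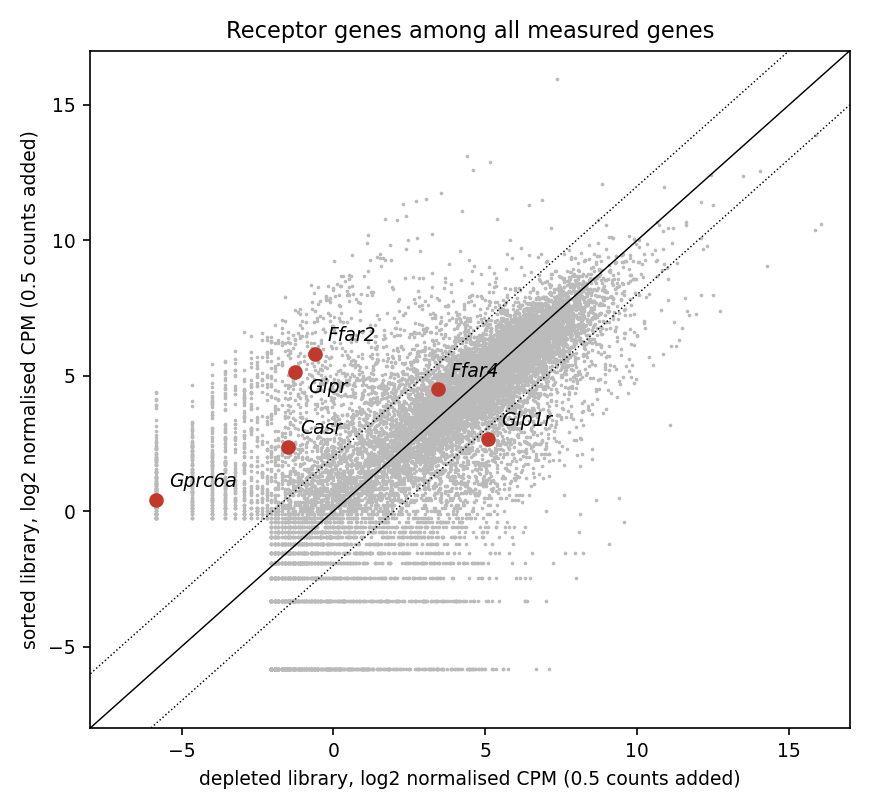
Each grey point is 1 of 16682 measured genes, with log2 normalised CPM in the depleted (x) and sorted (y) library, 0.5 counts added in proportion to library size; the solid line marks equal levels and dotted lines 4-fold. Ffar2, Gipr, Casr and Gprc6a (red) lie above the upper dotted line, Ffar4 between the line of equal levels and that line, and Glp1r below the lower dotted line.

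The fold of a receptor gene can be set beside those of hormone and granule genes by its counts per 1000 counts of such a gene. Chga encodes chromogranin A, a granule protein of endocrine cells in general. Per 1000 Chga counts, Ffar2 had 0.880 counts sorted and 3.95 depleted, and Gipr 0.547 and 2.45. Both were therefore 4.48 to 4.49 times lower per Chga in the sorted library, with intervals of 2.98 to 6.51 for Ffar2 and 2.63 to 7.18 for Gipr. Per count of Ghrl, the ghrelin gene, the order was the reverse: Ffar2 was 9.14 times higher in the sorted library [6.30 to 13.8] and Gipr 9.14 times [5.71 to 15.6]. Per count of Gcg, the proglucagon gene from which GLP1 is made, the ratios were 1.85 for Ffar2 [1.15 to 3.03] and 1.85 for Gipr [1.06 to 3.38]. Casr did not differ from Ghrl beyond counting error, with 1.19 counts per 1000 Ghrl counts sorted and 0.734 depleted (ratio 1.62 [0.913 to 3.07]). Per Chga it was 25.3 times lower in the sorted library [13.35 to 44.9].

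Markers of several cell types moved with the receptor genes, and their part in these results was not tested. The counts called in this paragraph and the next stand beside 13.6% higher and 11.3% lower over all measured genes. The marker lists are short, and some of their counts are near those shares. Of the genes listed for histamine-making cells 6 of 6 were called higher, summing to 82793 CPM sorted and 233.5 CPM depleted. Genes of serotonin-making cells were called higher in 2 of 2 cases (27.0 and 1.98 CPM). These were Tph1, with 319 counts against 87, and Lmx1a, with 10 against 2. Ghrelin cell genes were called higher in 2 of 3 cases (4770 and 555.0 CPM) and genes of somatostatin cells in 2 of 3 (762 and 95.2 CPM), with Hhex called lower. Of the genes listed for intestinal hormone cells Gcg and Pyy were called higher, Gip was not, and Cck, Insl5 and Nts were not measured (71.2 and 2.03 CPM in sum). Pancreatic acinar genes were called higher in all 4 measured of 7 listed cases, summing to 1538 and 3.90 CPM, while Cpa1 was at 0 in both libraries. Ffar1, Gpr119, Gipr and Glp1r are also genes of pancreatic islets. Of the islet genes the defining insulin genes Ins1 and Ins2 were at 0 in both libraries, as was Mafa, and the list summed to 6.24 and 4.43 CPM. Ppy, for pancreatic polypeptide, had 21 counts against 0. Mast cell genes were called higher in 2 of 6 cases (240.2 and 104 CPM) and neuron and glia genes in 3 of 4 measured (449.8 and 3.63 CPM), with Sox10 at 0 in both libraries.

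Genes of several other corpus cell types were lower in the sorted library, as Glp1r was, with chief cell genes mostly called neither. Of the parietal cell genes 5 of 6 were called lower and 0 higher, with sums of 1561 CPM sorted and 11081 CPM depleted. Per 1000 counts of Atp4a, the acid pump gene of parietal cells, Glp1r had 7.23 counts sorted and 6.77 depleted, a ratio of 1.07 [0.839 to 1.34]. Among chief cell genes 1 of 5 was called lower, Chia1 at 5.51-fold, and the list summed to 16819 and 66310 CPM. Pgc was 3.98-fold lower [3.965 to 4.003], just short of the 4-fold rule. Cblif and Rab3d were 1.74-fold and 1.28-fold lower. Bhlha15, a chief cell transcription factor gene, had the reverse order and was 1.90-fold higher in the sorted library [1.65 to 2.18]. Mucous neck genes were called lower in 2 of 4 cases and higher in 0 (859 and 6995 CPM). Surface mucous genes were lower in all 4 measured cases (3608 and 154418 CPM), tuft cell genes in 7 of 9 (7.80 and 262 CPM) and macrophage genes in 8 of 8 (10.8 and 2803 CPM). Relative to Gkn1, a surface mucous gene, Glp1r was 8.16 times higher in the sorted library [6.41 to 10.3]. The part of any of these cell types in the Glp1r counts was not tested.

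The genes closest to each called receptor gene in log2 normalised CPM over the 2 libraries were found among measured protein-coding genes. For Ffar2 these were Apof, with 674 and 26 counts in the sorted and depleted library, and Zfp462, with 696 and 25. For Gipr they were Slit3, with 432 and 18 counts, and Nudt11, with 440 and 18. For Casr they were Irak1bp1, with 64 and 15 counts, and the adhesion receptor gene Adgrd1, with 65 and 15. For Gprc6a Astn2 and Gpr142, the gene of a tryptophan-sensing receptor, had the same 16 and 0 counts. For Glp1r they were Fermt3, with 78 and 1517 counts, and Dtna, with 82 and 1512. Likeness over 2 libraries is weak, since many genes lie close to any point.

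Incretins and the enzymes that process them were mostly higher in the sorted library, with the exception of GIP and its degrading enzyme. Of 6 measured genes 4 were called higher and 0 lower (median of log2 folds 4.92). The counts of this list and of the lists that follow stand beside 13.6% called higher and 11.3% called lower over all measured genes. Several of these lists are short, and some of their counts are near those shares. Gcg was 47.2-fold higher [36.1 to 62.7], and Pcsk1, whose convertase releases GLP1 from proglucagon, 227-fold [191 to 272]. Pcsk2, whose convertase releases glucagon, was 19.9-fold higher [15 to 26.8]. Gip, the gene of the ligand of the Gipr product, had 3 counts against 30, 2.71 times lower in the sorted library by that ratio [0.843 to 13.9], an interval that includes 1. Dpp4, the enzyme that inactivates both incretins, was at 0.821 and 1.98 CPM. The sorted library thus held Gcg with little Glp1r, and Gipr with almost no Gip.

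Other receptors of the family of Gipr and Glp1r (class B1, peptide hormone receptors that mainly couple to Gs) were split. Of 13 listed genes 5 were measured, of which 2 were called higher and 1 lower (median of log2 folds 0.52). Vipr1 was 19.1-fold higher in the sorted library [16.9 to 21.8], with 1506 counts against 290. Gcgr, the glucagon receptor gene, was 15.2-fold higher [6.89 to 38.1] on 33 counts against 8. Sctr, the secretin receptor gene, was 36.2-fold lower [25.6 to 52.9] on 32 counts against 4267. Glp2r, whose receptor binds GLP2 from the same precursor as GLP1, was at 0 in both libraries.

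Other nutrient and metabolite receptor genes were also split, with 5 called higher and 4 lower of 12 measured among 18 listed, and a median log2 fold of -1.63. Hcar1, the lactate receptor gene, was 9.43-fold higher [7.32 to 12.2]. Tas1r1 and Tas1r3, which together form the amino acid (umami) taste receptor, were 7.68-fold [3.72 to 16.8] and 4.10-fold higher [2.87 to 5.85], while Tas1r2, the sweet receptor partner of Tas1r3, was at 0 in both libraries. Gpr142, named above, had 16 counts against 0 and Grm4, a metabotropic glutamate receptor gene, 14 against 2. Gpr35 and Gpr84 had 0 counts in the sorted library. With 0 held to 3 counts they were 14.0-fold and 5.79-fold lower there, with exact intervals from 11.26 and 4.57 up. Lpar5, a receptor of lysophosphatidic acid, was 11.96-fold lower [6.62 to 24.1].

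**Figure D4:**
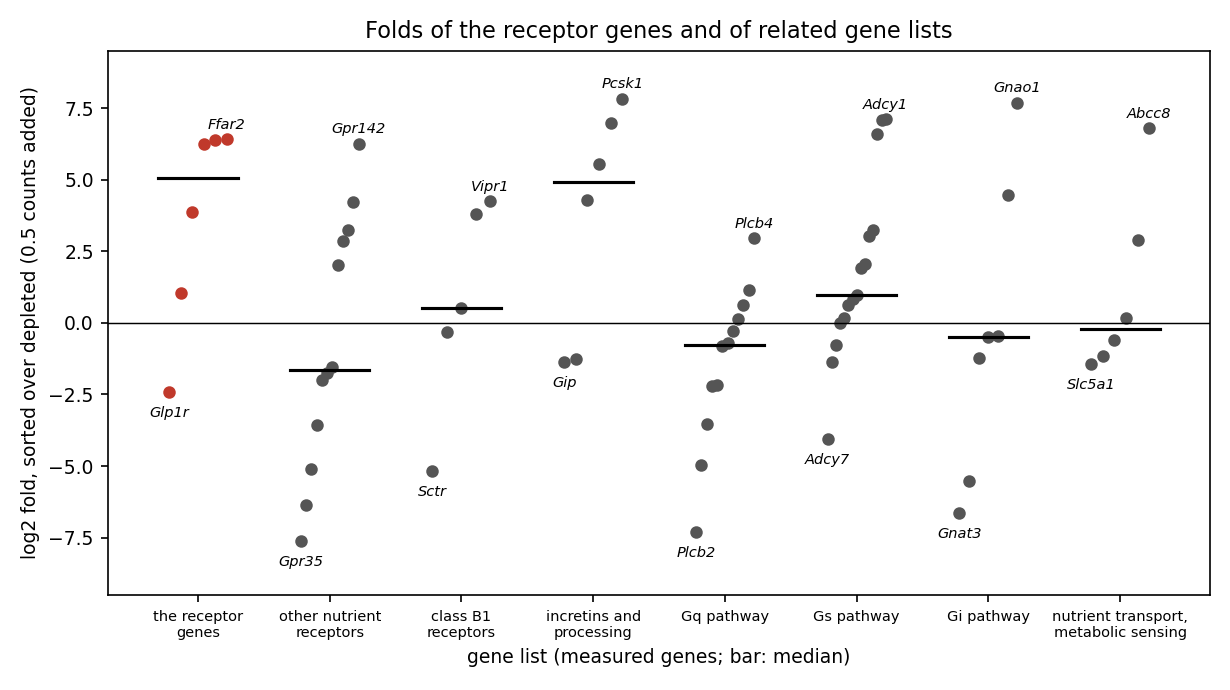
Log2 fold, sorted over depleted library (0.5 counts added in proportion to library size), of each measured gene in the receptor set (red) and in 7 related lists (grey), with bars at the medians and the lowest and highest gene of each list named. The receptor genes have a median of 5.07, set in part by Gprc6a, and range from Glp1r at -2.42 to Ffar2 at 6.41. The lists of other receptors span both directions.

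The signalling genes behind these receptors showed few calls for the widely expressed G proteins. In the Gq list 1 of 12 measured genes was called higher and 5 lower (median log2 fold -0.77). Gnaq and Gna11, the G protein genes themselves, were 2.23-fold higher [2.13 to 2.34] and 1.21-fold lower [1.15 to 1.28]. The phospholipase genes differed more: Plcb4 was 7.71-fold higher [7.06 to 8.43] and Plcb3 4.47-fold lower [4.10 to 4.87]. Plcb2 and the channel gene Trpm5, both of the tuft and taste cell pathway, had 1 count against 714 and 6 against 709. The inositol trisphosphate receptor gene Itpr3 was 4.56-fold lower [4.37 to 4.75].

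In the Gs list 6 of 15 measured genes were called higher and 1 lower (median of log2 folds 0.96). The adenylyl cyclase genes Adcy1 and Adcy5 were 156-fold [70.5 to 428] and 99.6-fold higher [70.4 to 145]. Adcy8, with 29 counts against 0, was 35.7-fold higher with 0 held to 3 counts, with an exact interval from 27.2 up. Rapgef4, which encodes the cyclic AMP sensor EPAC2 of secretory cells, was 8.24-fold higher [7.27 to 9.35] and Prkacb, a protein kinase A subunit gene, 9.56-fold [9.11 to 10.04]. Adcy7, the cyclase gene called lower, was 16.7-fold lower [12.1 to 23.8]. Gnas, the Gs gene, had 171 counts against 355 and was called neither. Whether overlapping transcripts at its locus lowered this count was not tested. In the Gi list 2 of 7 were called higher and 1 lower (median -0.50). Gnao1, the Go gene of neurons and endocrine cells, was 208-fold higher [162 to 273] and Gnaz 22.2-fold [17.2 to 29.2], while Gnai2 and Gnai3 were 1.36-fold [1.30 to 1.43] and 1.41-fold lower [1.34 to 1.49]. Gnat3, the taste G protein gene, had 0 counts against 78. With 0 held to 3 counts it was 7.05-fold lower, with an exact interval from 5.6 up.

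Genes of nutrient uptake and metabolic sensing numbered 6 measured, of which 2 were called higher and 0 lower (median of log2 folds -0.21). Abcc8, a subunit of the ATP-sensitive potassium channel, was 112-fold higher [92.7 to 137] and the amino acid transporter gene Slc7a5 7.42-fold [6.82 to 8.08]. Slc5a1, the sodium-glucose cotransporter gene, had 11 counts against 111, and Slc2a2, the glucose transporter gene of beta cells and liver, had 0 against 1.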

How the data were processed

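RNA-seq was done on 1 sorted and 1 depleted library. RNA was extracted with Qiagen RNeasy and made into libraries with Illumina TruSeq kits, per the labels' protocols. Alignment to mm9 was with TopHat2 2.0.07 and counting with HTSeq, per the submitters' processing notes. For annotation release, strand setting and read length, the entry is: not given in the sources used here. Raw counts per Ensembl gene are what the authors deposited. The 5 summary rows that name no gene were left out. They held 9.2% (sorted) and 4.91% (depleted) of alignments outside genes, 1.45% and 1.11% ambiguous and 24.2% and 34.3% not unique. Depth set the precision: 10736538 and 50928524 counts in genes.

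Symbols came from GENCODE M21 (GRCm38), which named 32642 of 37681 identifiers. Of 199 listed genes 198 were found, 1 of them through an older symbol. The value of 1 further gene is not reported here, and it was left out of its list and the plot of lists. Scaling used edgeR 4.0.16 (R 4.3.3) TMM factors from the measured genes, 1.13 and 0.882. Folds have exact Clopper-Pearson 95% intervals, levels exact Poisson intervals and ratios of ratios conditional exact intervals (SciPy 1.17.1). A count of 0 was held to 3 counts per library in folds. No test between groups was possible. In a simulation based on these libraries (16740 measured genes, 200 of them changed 8-fold), 95.9% of intervals covered the fold that was set. Spread between samples cannot be estimated with 1 library in each group, so this share speaks to counting error only. The simulated counts had Poisson error alone and known totals, as these intervals assume, so the share checks the calculation and not these data. The 50-base words of the receptor genes' transcripts were compared with all M21 transcripts, and at most 0.802% (Ffar1) were shared with another gene. No exon of a receptor gene overlapped another M21 gene. Promoter windows came from RefSeq (GRCm38.p6).

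The receptor genes and gene lists were chosen with earlier results of these data known. The text names all receptor genes, their nearest neighbours, the 2 genes closest to each called receptor gene, from each list of receptors, ligands, signalling or transport the most extreme folds, and of the marker lists some defining markers, not their most extreme folds. Other list genes were named after their values were seen, and so were the genes used as denominators, the motifs and the printed windows. Alternatives were size factors of DESeq2 1.42.0, upper-quartile factors, library totals as they are, totals without the 20 most abundant genes, TMM over all genes, other count minimums, a 2-fold rule and transcript length.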

Additional observations from a re-analysis of the deposited data

How the results depend on the processing

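The 4 receptor genes called higher (Ffar2, Gipr, Casr and Gprc6a) and the 1 called lower (Glp1r) numbered the same under each of the 5 other scalings and with no count minimum beyond 1 count. With at least 20 counts required, Gprc6a was no longer measured and 3 were called higher. With the rule of at least 2-fold and an interval clear of 1, 5 were called higher, and over all genes 3652 were called higher and 3651 lower, against 2272 and 1880. Without a scaling factor Ffar4 was 2.66-fold higher instead of 2.07-fold and Glp1r 4.15-fold lower instead of 5.34-fold. That scaling moved the median log2 fold of all measured genes from -0.05 to 0.31. It was 0.16 without the 20 most abundant genes, -0.14 with DESeq2 size factors and -0.16 with TMM over all genes, an alternative chosen after seeing the data. With the longest transcript as length Ffar2 stood at 24.5 instead of 20.2 CPM per kilobase. Ffar1, Ffar3, Gpr119 and Gpbar1 had too few counts for a fold under any scaling. Of 72 recomputed values 67 stayed within their interval or within 1.5 times their count. No paired analysis was possible because each group held 1 library. Depth limits the low genes: 0 counts in the sorted library allowed up to 0.303 CPM by the exact interval, above the 0.246 CPM of 3 counts.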
